A study of Mus musculus with 2 samples.

Results

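The genes described here are 10 mouse genes of extracellular proteolysis, the matrix metalloproteinases *Mmp1a*, *Mmp1b*, *Mmp3*, *Mmp9*, *Mmp10*, *Mmp12* and *Mmp13*, the metalloproteinase inhibitor *Timp1*, the urokinase gene *Plau* and the urokinase receptor gene *Plaur*. They were found by name among the probes of the array, where 11 probes on 20 spots carried them, and they are 10 of the 30133 genes represented. Skin RNA of newborn mice at postnatal day 0 on a C57BL/6N background was measured on 1 single-colour (Cy3) Agilent array for wild-type *Pnpla1*+/+ littermates and 1 for *Pnpla1*-/- mice. Each array held RNA pooled from 6 animals. The *Pnpla1*-/- mice were bred from heterozygotes carrying the knockout-first allele *Pnpla1*tm1a(KOMP)Wtsi, from which the IRES-LacZ and Neo cassettes had been removed with flippase. No treatment is named for either genotype. *Pnpla1*, which encodes a lipid-metabolizing protein of the patatin-like phospholipase family needed for the skin barrier, had a probe intensity of 579 in the wild type and 114 in the knockout, which is −2.07 on the log2 scale, with both values well above background. By quantitative PCR the paper reports no *Pnpla1* mRNA in knockout skin. What the remaining signal of this probe represents was not tested.

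Matrix metalloproteinases are secreted or membrane-bound zinc enzymes that are made as inactive proenzymes and, once activated, cleave collagens, other matrix proteins and many signalling proteins. Tissue inhibitors of metalloproteinases (TIMPs) block the active enzymes. Urokinase, held at the cell surface by its receptor, converts plasminogen to plasmin, a broad protease that dissolves fibrin and can activate several of the proenzymes. In skin these genes are known from wounds, where migrating keratinocytes, dermal fibroblasts and recruited neutrophils and macrophages each make a different set, and many of their promoters hold an AP-1 element, the site bound by Fos and Jun proteins, a short distance upstream of a TATA box.

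The promoters of the members with the higher signals in *Pnpla1*-/- skin are given first. The sequences are those of RefSeq on GRCm38.p6, each running from 250 bases before the annotated transcription start to 50 bases after it, and 8 of the 10 members had one in the table used. *Mmp9* and *Plau* had none and are left out of the promoter counts. Each is written 5′ to 3′ on the strand of the gene. Capitals mark the AP-1 element TGACTCA and the TATA box TATAAA. Both were searched on both strands, so the AP-1 element is also read as TGAGTCA, and every TATA box in the members lay on the strand of the gene. Position 0 is the start and negative positions lie before it. Shown are *Mmp3* (chr9:7445572-7445871, plus strand), *Mmp1b* (chr9:7387977-7388276, minus strand), *Mmp13* (chr9:7272264-7272563, plus strand), the second annotated start of *Mmp12* (chr9:7347124-7347423, plus strand) and *Plaur* (chr7:24462233-24462532, plus strand).
Mmp3: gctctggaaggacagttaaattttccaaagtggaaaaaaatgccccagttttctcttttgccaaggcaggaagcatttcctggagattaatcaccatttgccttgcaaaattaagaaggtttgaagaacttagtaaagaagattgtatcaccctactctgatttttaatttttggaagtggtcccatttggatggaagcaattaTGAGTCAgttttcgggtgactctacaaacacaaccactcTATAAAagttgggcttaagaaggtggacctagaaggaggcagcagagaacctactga
Mmp1b: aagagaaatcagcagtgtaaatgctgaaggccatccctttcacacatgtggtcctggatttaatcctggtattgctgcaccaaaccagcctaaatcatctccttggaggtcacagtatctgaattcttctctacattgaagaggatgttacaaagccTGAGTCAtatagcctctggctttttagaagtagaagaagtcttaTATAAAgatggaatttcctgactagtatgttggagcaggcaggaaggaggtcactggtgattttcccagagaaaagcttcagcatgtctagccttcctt
Mmp13: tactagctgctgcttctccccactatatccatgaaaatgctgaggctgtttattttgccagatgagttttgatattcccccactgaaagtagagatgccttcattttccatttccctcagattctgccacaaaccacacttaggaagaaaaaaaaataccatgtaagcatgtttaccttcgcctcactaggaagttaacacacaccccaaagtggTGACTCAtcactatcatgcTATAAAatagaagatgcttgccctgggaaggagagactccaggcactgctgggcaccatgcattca
Mmp12, second start: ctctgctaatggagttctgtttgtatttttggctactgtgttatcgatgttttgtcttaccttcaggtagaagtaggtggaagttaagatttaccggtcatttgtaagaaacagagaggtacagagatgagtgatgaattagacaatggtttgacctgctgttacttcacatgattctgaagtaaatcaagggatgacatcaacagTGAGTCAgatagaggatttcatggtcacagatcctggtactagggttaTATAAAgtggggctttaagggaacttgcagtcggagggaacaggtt
Plaur: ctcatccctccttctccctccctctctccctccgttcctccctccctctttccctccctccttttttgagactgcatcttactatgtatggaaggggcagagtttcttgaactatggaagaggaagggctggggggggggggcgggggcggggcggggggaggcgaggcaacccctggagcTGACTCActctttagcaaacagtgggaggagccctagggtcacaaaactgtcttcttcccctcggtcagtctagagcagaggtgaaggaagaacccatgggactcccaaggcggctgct

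The promoters of *Mmp1a* (chr9:7463891-7464190, plus strand) and *Mmp10* (chr9:7502092-7502391, plus strand), neighbours that were not counted as higher in *Pnpla1*-/- skin, are shown by the stretch of 47 bases that holds the AP-1 element, for comparison.
Mmp1a: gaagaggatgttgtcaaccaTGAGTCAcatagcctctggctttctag
Mmp10: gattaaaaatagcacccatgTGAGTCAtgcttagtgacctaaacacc

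The AP-1 letters were found in the promoters of 7 of the 8 members with a sequence, all but *Timp1*, whereas 5.95% of the 27025 genes with a promoter in the table held them. The TATA box was found in 6 of the 8, all but *Timp1* and *Plaur*, against 15.7% of the 27025 genes, and 1.12% of the genes held both. The first letter of the AP-1 element lay at position −46 in *Mmp3*, −93 in *Mmp1b*, −73 in *Mmp1a*, −63 in *Mmp10*, −35 in *Mmp13*, −44 at the second start of *Mmp12* and −69 in *Plaur*. TATAAA began at −7 in *Mmp3*, −49 in *Mmp1b*, −28 in *Mmp1a*, −29 in *Mmp10* and −16 in *Mmp13*. For the second start of *Mmp12* it began at 4, after the annotated start. The other *Mmp12* start (chr9:7344147-7344446) and the *Timp1* promoter (chrX:20869916-20870215) held neither motif. The promoters of the neighbouring paralogs *Mmp1a* and *Mmp1b* were identical at 89.1% of 274 aligned bases, those of *Mmp3* and *Mmp10* at 69.0% of 268. A match is a run of letters and not a measured site, and the array measured no binding.

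Each value below is the background-subtracted fluorescence intensity of a probe in arbitrary units, given as deposited, and each difference is the log2 value in *Pnpla1*-/- minus that in *Pnpla1*+/+ skin, both scaled to the 75th percentile of their own array, 2108 in *Pnpla1*+/+ and 1734 in *Pnpla1*-/- skin. A difference of 1 is 2-fold. Each array had 43020 spots other than controls, of which 71.7% were well above background in *Pnpla1*+/+ and 73.3% in *Pnpla1*-/- skin, with none saturated. With 1 array per genotype no test between the genotypes, no p-value and no SD between mice can be given, and genotype, pool and array cannot be told apart. What can be given is the technical spread of a difference that comes from repeated spots within each array, from 385 probes printed at least 8 times. Its median SD was 0.61 for probes whose lower intensity was under 25, 0.23 from 25 to 100, 0.09 from 100 to 1000 and 0.07 above 1000. This SD leaves out labelling, hybridization and scaling error between the arrays. On the scaled values the 8 spike-in control probes differed by 0.43 on average (0.30 to 0.52). A probe well above background on 1 array only gives a bound, computed against the lowest intensity well above background on the other array (23.9 in *Pnpla1*+/+ and 21.7 in *Pnpla1*-/- skin) or the dim probe's own intensity if higher, and written as at least N-fold. Levels of different probes are not comparable with each other.

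In *Pnpla1*-/- skin, 6 of the 10 members had at least 2-fold higher signal, the stromelysin *Mmp3*, the collagenases *Mmp1b* and *Mmp13*, the gelatinase *Mmp9*, the macrophage elastase *Mmp12* and the urokinase receptor *Plaur*. None was at least 2-fold lower. *Timp1* and *Plau* differed by less than 2-fold, *Mmp10* had only a bound and no direction, and *Mmp1a* was on neither array well above background. Of all 22374 genes with a difference or bound, 6.70% were higher and 3.04% lower by the same 2-fold criterion, with a median difference of 0.00. With spike-in centring 3 members and with normexp background correction 4 were at least 2-fold higher, and of all genes 827 were higher and 2178 lower with spike-in centring, and 998 and 1424 without scaling. For *Mmp1b*, *Mmp9*, *Mmp12* and *Mmp13* the value is a bound, and such a member could enter the count only by being higher. Among the 4 members well above background on both arrays, 2 (*Mmp3* and *Plaur*) were at least 2-fold higher, beside 5.65% of the 20680 genes measured on both.

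**Figure D1:**
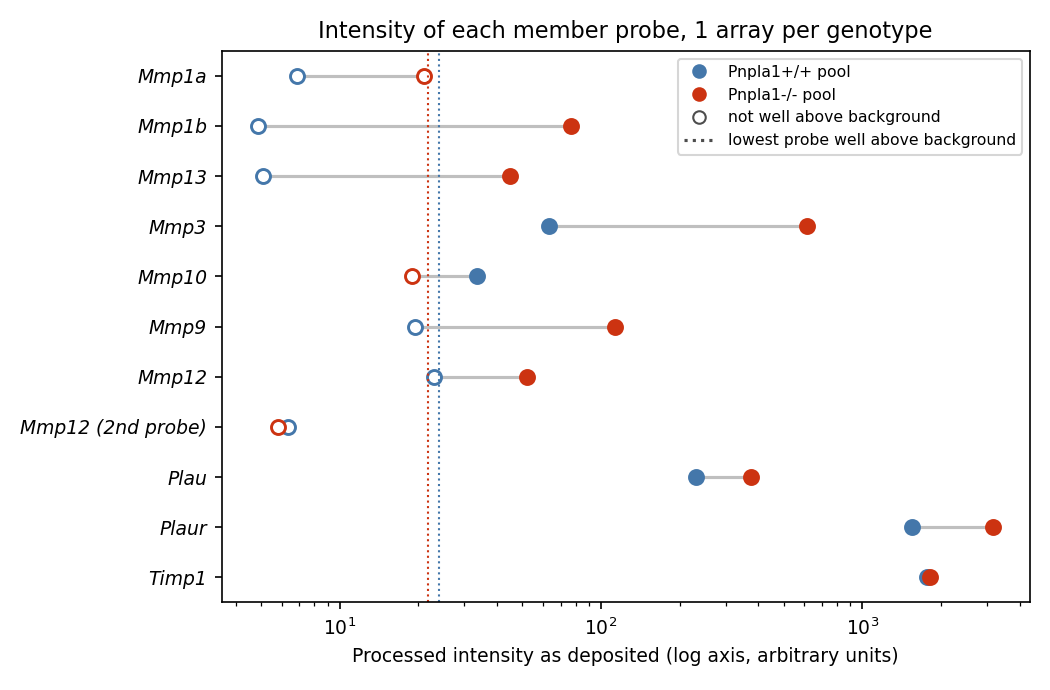
Background-subtracted intensity (arbitrary units, log axis) of the 11 probes of the 10 members on the *Pnpla1*+/+ (blue) and the *Pnpla1*-/- (red) array, 1 pool of 6 mice each, with open points for probes not well above background and dotted lines at the lowest intensity that was well above background on each array, 23.9 and 21.7. *Mmp3* moved from 63.2 to 615 and *Plaur* from 1550.0 to 3161, the *Pnpla1*+/+ points of *Mmp1b*, *Mmp13*, *Mmp9* and *Mmp12* are open and their *Pnpla1*-/- points filled, and *Timp1* was at 1759 and 1815.

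Among the stromelysins, *Mmp3*, which cleaves proteoglycans, laminin and fibronectin and activates other proenzymes, went from 63.2 in the wild type to 615 in the knockout (probe at chr9:7455751-7455810, mm9). The log2 difference was 3.56, 11.8-fold, against a technical SD of 0.23 for probes of this intensity. It was the largest difference among the 4 members measured on both arrays, although its wild-type value, far over the 95th percentile of the 153 negative control spots (7.39), was under their highest value of 73.9. *Mmp10*, the second stromelysin, known from the keratinocytes at the leading edge of wounds, gave 33.6 in *Pnpla1*+/+ and 18.9 in *Pnpla1*-/- skin, where it was not well above background (chr9:7510011-7510070). This is a bound of at least 1.27-fold lower, −0.35 on the log2 scale, which is smaller than the technical SD of 0.61 at this intensity. No direction can therefore be given for *Mmp10*.

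Of the interstitial collagenases, which cut fibrillar collagen, *Mmp13* gave 5.07 in *Pnpla1*+/+ and 44.6 in *Pnpla1*-/- skin (chr9:7282762-7282821), at least 2.27-fold higher. *Mmp1b*, 1 of the 2 mouse paralogs of the collagenase gene *MMP1*, gave 4.88 and 76.6 (chr9:7367842-7367901), at least 3.89-fold higher. On the *Pnpla1*+/+ array both were at the level of the negative control spots, whose median was 5.81. On the *Pnpla1*-/- array both were above the 95th percentile of those spots, 6.52, and *Mmp1b* but not *Mmp13* was above the highest of them, at 49.2. The other paralog, *Mmp1a*, gave 6.85 and 21.0 (chr9:7476795-7476854) and was on neither array well above background, so no fold is given. The *Mmp1a* and *Mmp1b* probes shared no run longer than 5 bases, but whether either also binds the transcript of its paralog was not tested, and the assignment of the signal to 1 of the 2 genes is uncertain.

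*Mmp9*, the gelatinase that degrades denatured collagen and the type IV collagen of basement membranes and that neutrophils store in their granules, was the member measured most often, with 10 spots of 1 probe on each array (chr2:164780620-164780679). After 1 spot position with an outlier flag on the *Pnpla1*+/+ array was left out on both arrays, the 9 spots on the *Pnpla1*+/+ array ranged from 10.3 to 29.4 with a median of 17.7, and only 1 was well above background. The 9 on the *Pnpla1*-/- array ranged from 106 to 126 with a median of 114, all well above background. The spot ranges did not overlap, also with the excluded *Pnpla1*+/+ spot at 50.2 included. The signal was at least 5.74-fold higher in *Pnpla1*-/- skin, 2.52 on the log2 scale, and 2.92 if the dim intensities are taken as measured. Spots of 1 array share 1 RNA pool, so their spread (SD 0.60 and 0.07 on the log2 scale) is that of the array and not of mice.

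**Figure D2:**
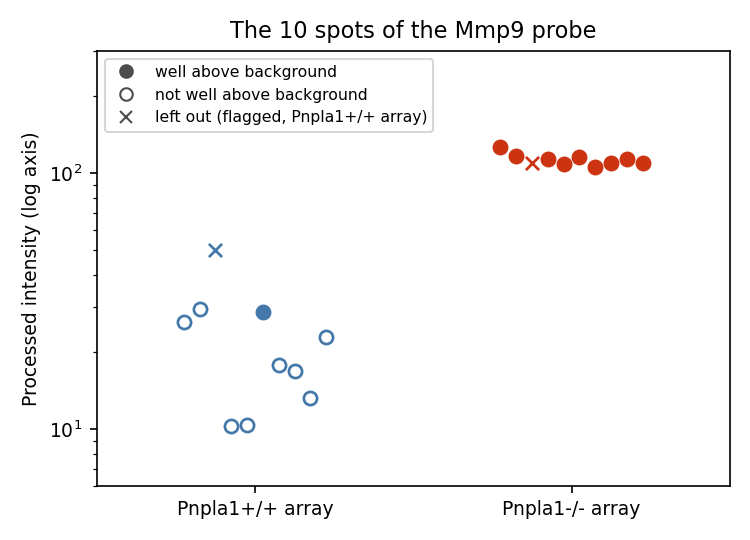
Intensity (arbitrary units, log axis) of each of the 10 spots of the *Mmp9* probe on the *Pnpla1*+/+ and the *Pnpla1*-/- array, with filled points for spots well above background, open points for spots that were not, and a cross for the spot position left out on both arrays because of an outlier flag on the *Pnpla1*+/+ array. Used spots lay between 10.3 and 29.4 in *Pnpla1*+/+ and between 106 and 126 in *Pnpla1*-/- skin.

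*Mmp12*, the elastase of macrophages, had 2 probes that did not behave alike. The probe at chr9:7352935-7352994 gave 22.9 in *Pnpla1*+/+ and 52.1 in *Pnpla1*-/- skin, at least 2.65-fold higher. The probe at chr9:7360373-7360432 gave 6.32 and 5.82, on neither array well above background. The difference in *Mmp12* thus rested on 1 spot per array at an intensity where the technical SD was 0.61.

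The genes of urokinase, its receptor and the inhibitor were well above background on both arrays, at intensities with less spread between repeated spots. *Plaur*, the urokinase receptor, gave 1550.0 in *Pnpla1*+/+ and 3161 in *Pnpla1*-/- skin (chr7:25260569-25260628), a log2 difference of 1.31 or 2.48-fold with a technical SD of 0.07. *Plau*, the protease it binds, gave 230.1 and 375 (chr14:21662242-21662301), 0.99 or 1.98-fold, just under the 2-fold criterion and above the technical SD of 0.09. The differences of both enzyme and receptor exceeded the spread between repeated spots at their intensities, which leaves out error between the arrays. Which of them passed 2-fold depended on the scaling, since *Plaur* was at 0.88 with spike-in centring and *Plau* at 1.04 with cyclic loess. *Timp1*, the secreted inhibitor of most of these metalloproteinases, gave 1759 and 1815 (chrX:20451802-20451861), 0.33 or 1.25-fold. Its difference exceeded the technical SD of 0.07 under this scaling and was −0.10 when the arrays were centred on their spike-in probes instead, so no direction can be given for *Timp1*.

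**Figure D3:**
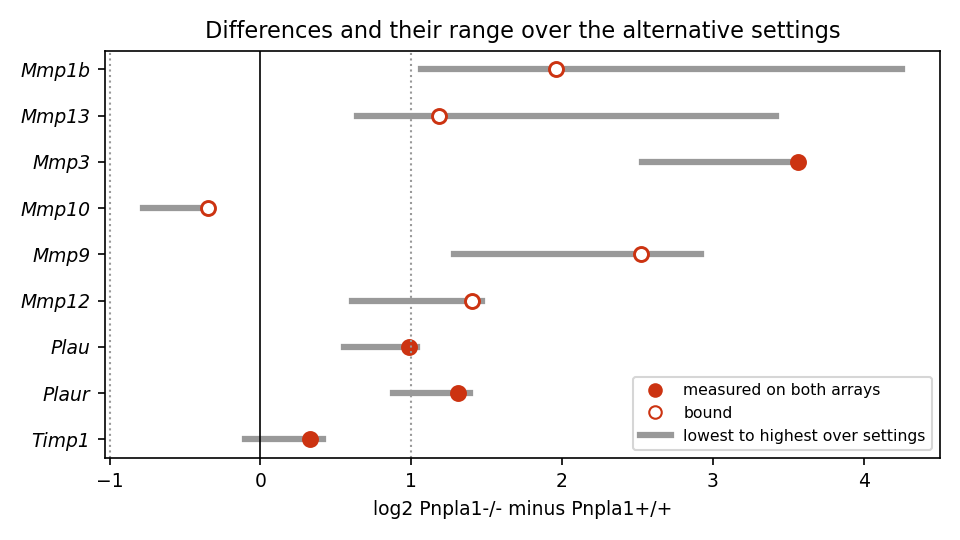
Log2 difference (*Pnpla1*-/- minus *Pnpla1*+/+) of the 9 members with a value, with a filled point where it was measured on both arrays, an open point where it is a bound, and a line from the lowest to the highest value over the alternative settings that gave one. The lines of *Mmp3* (2.53 to 3.57), *Mmp9* (1.28 to 2.92) and *Mmp1b* (1.07 to 4.25) stayed above 1, those of *Mmp12*, *Mmp13*, *Plau* and *Plaur* crossed it, that of *Timp1* crossed 0 and that of *Mmp10* stayed below 0. The bound of *Mmp10* was kept only if below 0, so its line could cross 0 only with no filter on dim probes.

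Of the 10 members, 6 lie next to each other in the metalloproteinase cluster of chromosome 9, where 10 *Mmp* genes had probes between 7282762 and 7697700 (mm9), a span of 415 kb. In their order along the chromosome, *Mmp13* (1.18), *Mmp12* (1.41), *Mmp1b* (1.96) and *Mmp3* (3.56) were higher, the first 3 as bounds. *Mmp1a* gave no value and *Mmp10* was at −0.35. Beyond it lay *Mmp8*, the neutrophil collagenase, which is not a member and went from 59.5 to 1209.7, 4.63 on the log2 scale or 24.7-fold. Its promoter held the AP-1 letters on neither strand and TATAAA on the strand opposite to the gene only. *Mmp27* (−0.54), *Mmp20* (no value) and *Mmp7* (−0.29) followed. The higher genes were thus not all adjacent, and *Mmp10* and *Mmp1a* lay between *Mmp3* and *Mmp8*. Of the genes flanking the cluster, *Dync2h1* (−0.29), *Dcun1d5* (−0.08), *Tmem123* (0.52), *Birc2* (0.32) and *Yap1* (−0.06) differed by less than 2-fold, while *Birc3*, which encodes an inhibitor of apoptosis downstream of NF-κB, went from 384 to 1304, 2.05 on the log2 scale, with 1.78 by its other probe.

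**Figure D4:**
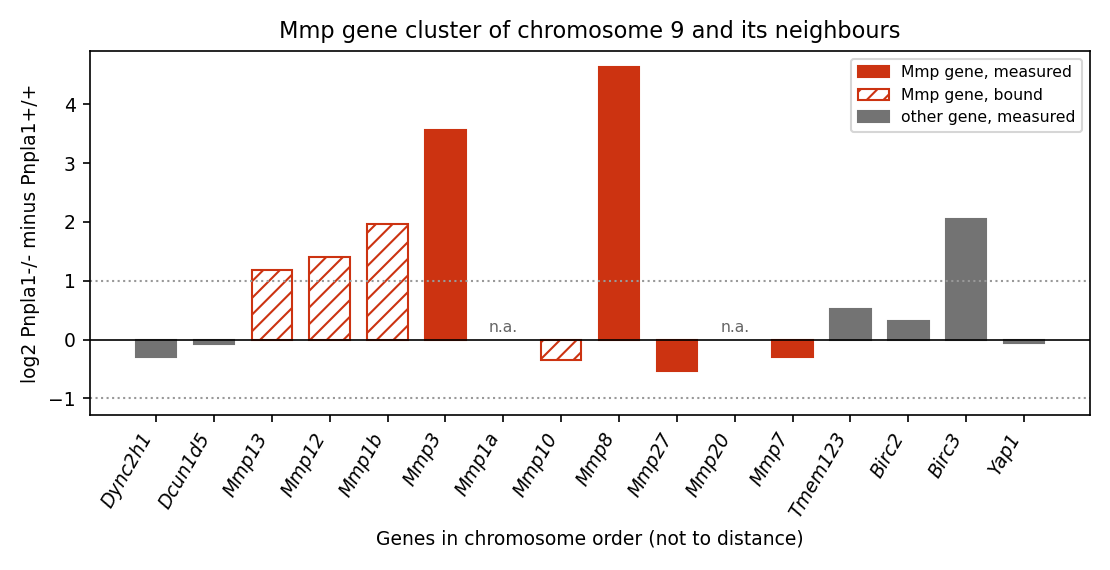
Log2 difference (*Pnpla1*-/- minus *Pnpla1*+/+) of 16 genes in their order along the chromosome 9 metalloproteinase cluster and its flanks, not spaced by distance, with filled red bars for *Mmp* genes measured on both arrays, hatched bars for bounds, grey bars for other genes, n.a. for genes without a value and dotted lines at 2-fold. The bars past 2-fold are *Mmp13*, *Mmp12*, *Mmp1b*, *Mmp3* and *Mmp8*, and outside the *Mmp* genes *Birc3*.

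Of the 16 other metalloproteinases on the array, 11 had a difference, *Mmp8* alone was at least 2-fold higher and none was at least 2-fold lower, with a median of −0.18 against 0.00 for all genes. This is 1 of 11, beside the 6.70% of all genes that were higher, and 5 of the 16 had no value. The lowest was *Mmp23* (−0.93), and 1 gene of the list was at least 2-fold lower without scaling or with spike-in centring. With no filter on dim probes 1 was also, *Mmp16*, which was on neither array well above background. *Mmp2*, the second gelatinase, was at 6476 and 4263 (−0.32) and *Mmp14*, its membrane-bound activator, at 2108 and 1471 (−0.24). On neither array were *Mmp16*, *Mmp20*, *Mmp21*, *Mmp25* and *Mmp28* well above background. Over all 23 *Mmp* genes, 17 had a difference and 6 of these passed 2-fold upwards.

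Of the 6 other inhibitor genes, 5 had a difference, with a median of −0.34. At least 2-fold lower was 1 of the 5, beside 3.04% of all genes. *Timp2* (−0.27), *Timp3* (−0.51), *Reck* (−0.34), a membrane-anchored inhibitor, and *Timp4* (0.16) differed by less than 2-fold. *Pzp*, an alpha-2-macroglobulin type plasma protease inhibitor, gave 95.9 in *Pnpla1*+/+ and 19.1 in *Pnpla1*-/- skin, at least 3.63-fold lower. Of this list, *A2m* was on neither array well above background.

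Of 16 other genes of the plasminogen system, 15 had a difference, with a median of 0.17. At least 2-fold higher were 2 of the 15, beside 6.70% of all genes. *Serpinb2*, which encodes plasminogen activator inhibitor 2, rose from 4853 to 14124 (1.82, 3.54-fold), and *Thbd*, which encodes the thrombin receptor thrombomodulin, from 2801 to 5492 (1.25, 2.38-fold). The tissue-type activator *Plat* was at 981 and 652 (−0.31). The gene of plasminogen itself, *Plg*, made mainly by liver, was well above background on the *Pnpla1*-/- array only, at 9.75 and 32.2. Of the 15 genes, 6 were below 0, the lowest being *S100a10* (−0.71). The urokinase receptor and *Serpinb2* were thus at least 2-fold higher under the main scaling. With spike-in centring *Serpinb2* was at 1.39 and the receptor at 0.88.

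Of the related protease families, *Adam8*, a membrane protease of leukocytes and activated epithelium, went from 3117 to 11841 (2.21, 4.62-fold) and was the only 1 of 8 ADAM genes with a difference that passed 2-fold, beside a median of 0.26. Of 10 ADAMTS genes with a difference, *Adamts16* was at least 5.93-fold lower, from 177 to 24.5, but its other probe gave 17.9 and 17.7, on neither array well above background. None of the ADAMTS genes was at least 2-fold higher. Over all genes, 6.70% were higher and 3.04% lower.

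Among 17 genes of matrix proteins and crosslinkers, 13 were below 0 and 4 above, with a median of −0.25. *Spp1*, which encodes osteopontin, a secreted adhesion protein cleaved by Mmp3, was the only gene past 2-fold, at 45.4 and 120.01 (1.68, 3.21-fold). This is 1 of 17, beside the 6.70% of all genes that were higher. The dermal collagens *Col1a1* (0.16) and *Col1a2* (−0.17) differed little, and elastin, *Eln*, was at −0.81. *Lama3* (−0.71) and *Lamb3* (−0.52), which encode laminin chains of the epidermal basement membrane, also differed by less than 2-fold. Without scaling 1 gene of the list, and with spike-in centring 4, were at least 2-fold lower.

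The AP-1 and ETS factors, whose elements are common in promoters of this family, moved in both directions. Of 11 genes, *Elf3* (115 to 1001, 3.40), an epithelial ETS factor, *Fosl1* (176 to 583, 2.01) and *Junb* (251 to 499, 1.27) were at least 2-fold higher. *Fos* (12022 to 4914, −1.01, from 10 spots) and *Fosb* (2032 to 531, −1.66) were at least 2-fold lower. Over all genes, 6.70% were higher and 3.04% lower. The median was 0.06, *Jun* was at 0.06, and *Fos* fell just short of 2-fold (−0.98) under cyclic loess. Whether any of these factors bound the promoters shown above was not measured.

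**Figure D5:**
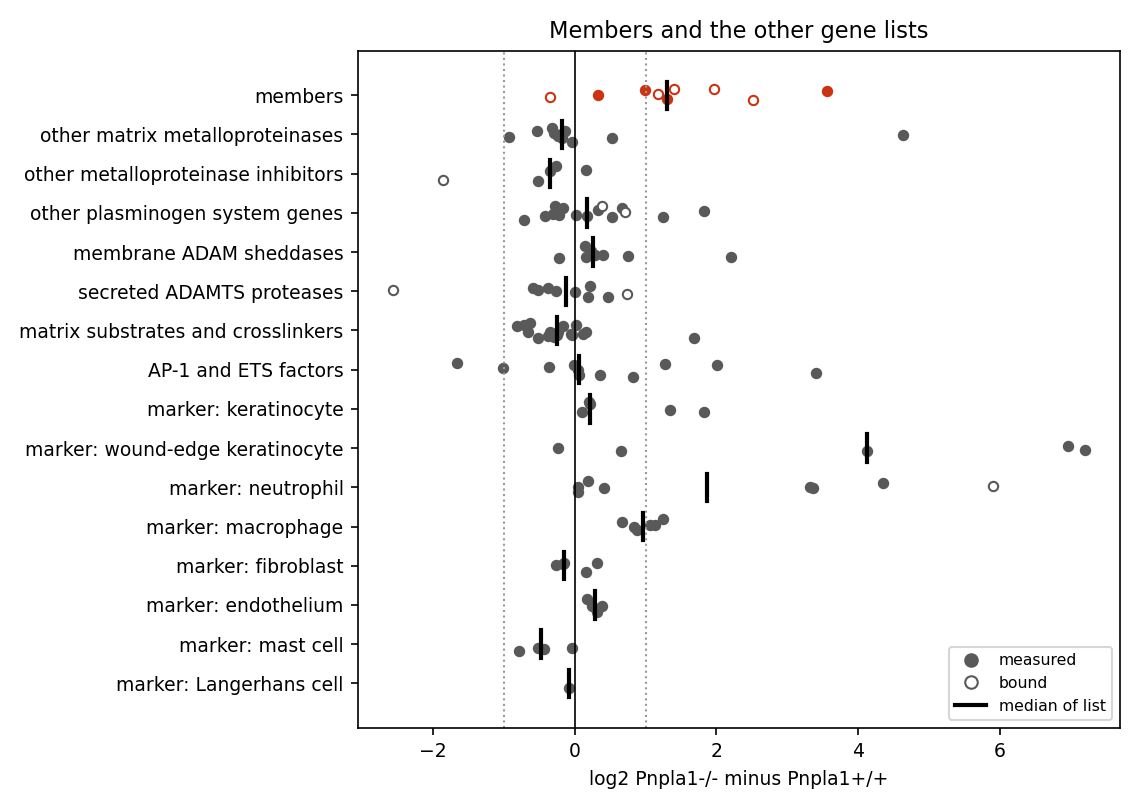
Log2 difference (*Pnpla1*-/- minus *Pnpla1*+/+) of each gene with a value among the members (red), in 7 lists of related genes and in 8 lists of cell type markers, with filled points for genes measured on both arrays, open points for bounds, a bar at each list's median and dotted lines at 2-fold. The members' median was 1.31, with bounds included, the medians of the 7 related lists lay between −0.34 and 0.26, and the wound-edge keratinocyte markers had the highest marker median, 4.13.

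Several of these genes are also made by cells other than keratinocytes, and markers of other cell types differed as well. In bulk skin, fewer cells of a type and less RNA per cell cannot be told apart. The labelled tissue was matched by its markers on both arrays, with *Krt10* of the upper epidermal layers at 277989 and 262540 (0.20) and *Col1a2* of dermal fibroblasts at 275482 and 201776 (−0.17), so RNA of the dermis was included. The sample labels name the tissue as skin and the series description speaks of epidermis, and the markers of dermal and immune cells were read on RNA that held both layers. Of 5 keratinocyte markers, *Krt14* (1.35) and *Dsg3* (1.82) were at least 2-fold higher and none was lower. Beside this and the following marker lists, 6.70% of all genes were higher and 3.04% lower.

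Of 5 markers of wound-edge keratinocytes, 3 were higher, *Krt6a* (420 to 42881, 6.96), *Krt6b* (2253 to 273344, 7.20) and *Krt16* (21192 to 304252, 4.13), and the summed intensity of the list went from 96591 to 713909, the brightest probe being that of *Krt17* (72133) on the *Pnpla1*+/+ and that of *Krt16* on the *Pnpla1*-/- array. Such sums add fluorescence over probes and do not rank transcripts. *Krt17* (0.65) and *Itga5* (−0.24) differed by less than 2-fold. *Krt6a* and *Krt6b* differed by more than any member, whether taken as a bound or as measured.

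Of 8 neutrophil markers, *Cxcr2* (at least 59.8-fold), *Mpo* (4.35), *Ngp* (3.36) and *Ltf* (3.33) were at least 2-fold higher. *Ly6g* (0.42), *Camp* (0.18), *Elane* (0.05) and *Csf3r* (0.04) differed by less than 2-fold. The summed probe intensity of the list was 94531 and 83452, to which the *Csf3r* probe gave 89901 and 76226, and on the scaled values it differed by 0.10. Of 6 macrophage markers, *Adgre1* (1.24), *Cd163* (1.13) and *Msr1* (1.06) were higher, *Mrc1* (0.88), *Cd68* (0.84) and *Csf1r*, with the brightest probe, (0.67) were under 2-fold, and the summed intensity was 25714 and 36661. Without scaling or with spike-in centring 0 of the 6 passed 2-fold, and with normexp background correction 1 did. Some neutrophil markers together with *Mmp8* and *Mmp9*, and macrophage markers together with *Mmp12*, had higher values on the *Pnpla1*-/- array, and the part of these cells in the result was not tested.

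Fibroblast (median −0.15), endothelial (0.28) and mast cell markers (−0.47) had no gene past 2-fold, although without scaling or with spike-in centring 1 mast cell marker was at least 2-fold lower. The summed intensities were 566040 and 433304 for the fibroblast list, with that of *Col1a2* the brightest probe, 8428 and 8687 for the endothelial list, with that of *Kdr* the brightest probe, and 108950 and 62951 for the mast cell list, with that of *Cpa3* the brightest probe. Of the Langerhans cell markers, *Cd207* was on neither array well above background and *Epcam* was at −0.08.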

How the data were processed

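Skin RNA pooled from 6 mice per genotype was hybridized by the authors to 1 Agilent array each. The authors deposited, per spot, a linear intensity after background subtraction (Feature Extraction 11.5.1.1, per the labels), and a table of ratios, which equal that intensity divided by 1 factor per array, at or next to its 75th percentile, and were used as an alternative. From the deposited intensities, each signal was divided by the array's 75th percentile (control spots left out) and taken to log2 (Python 3.11.15, numpy 2.4.6, pandas 2.3.3). Outlier-flagged spots (138 and 82) were left out on both arrays, repeated spots averaged as log2 values, and each gene shown by its brightest probe. A probe counted as well above background if most of its spots were. Of 39429 probes, 31456 were named through RefSeq tables and 7973 kept the name in the files. Probe coordinates are mm9 and promoter coordinates GRCm38.p6. Alternatives used limma 3.58.1 under R 4.3.3. Both arrays lay on 1 slide. The code was checked on simulated data. No p-values were computed. The members and lists were chosen with earlier results of these data known. All members, list genes past 2-fold and, in marker lists, the brightest gene are named; other named genes are examples chosen after their values were seen. Some genes of the lists are not reported here by name.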

Additional observations from a re-analysis of the deposited data

How the results depend on the processing

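Of 14 alternative settings, 12 could give a gene another value, and under these none of 32 genes past 2-fold (members, list and marker genes, *Birc3* and *Pnpla1*) changed direction in any that gave it one, and *Mmp3*, *Mmp9* and *Mmp1b* were at least 2-fold higher in every alternative that gave them a value. Settings that only rescale an array could not have turned the direction of these genes. They move all genes alike, and by less than the log2 difference of 1 by which the genes were chosen. A bound was kept only if it favoured the array with signal well above background. So *Mmp1b*, *Mmp9*, *Mmp12*, *Mmp13*, *Cxcr2*, *Adamts16* and *Pzp* could change direction only with no filter on dim probes. The number of members at least 2-fold higher, 6, became 3 after centring on 8 spike-in probes, 2 when bounds were left out and 3 at a 3-fold threshold. *Mmp13* passed 2-fold in 7 of 11 alternatives (0.90 without scaling, 0.91 after quantile normalization, 0.75 with spike-in centring, 0.64 with normexp), *Mmp12* in 9 of 11 (0.98 with spike-in centring, 0.61 with normexp) and *Plaur* in 11 of 12 (0.88 with spike-in centring). *Plau* passed it once (1.04 with cyclic loess). *Junb* (0.99 and 0.84) and *Thbd* (0.97 and 0.82) missed 2-fold without scaling and with spike-in centring, *Krt14* (0.92) with spike-in centring, *Pzp* (−0.68) with normexp and *Fos* (−0.98) with cyclic loess. The members' median of 1.31 was 1.24 with scaling by the median, 1.03 without scaling, 1.14 after quantile normalization, 0.88 with spike-in centring, 0.97 with normexp, 1.15 when bounds were left out and 1.68 with no filter on dim probes. Of all genes, 1499 were at least 2-fold higher and 681 lower. The counts were 998 and 1424 without scaling, 827 and 2178 with spike-in centring, 960 and 321 with normexp, 3041 and about 1.1e+03 with no filter, 3092 and 2092 at 1.5-fold and 684 and 228 at 3-fold. The share of higher genes among those past 2-fold was 68.8%, 41.2% without scaling, 58.8% after quantile normalization and 27.5% with spike-in centring. The median of all genes shifted by −0.28 without scaling, −0.44 with spike-in centring and 0.10 with no filter. In the pathway lists, 8 genes were higher and 4 lower. At 1.5-fold, 13 were higher and 11 lower, 11 were lower with spike-in centring and 2 when bounds were left out. With spike-in centring 1 plasminogen system gene and 2 ADAMTS genes were lower, against 0 and 1. Of the other values, for single genes and single lists, 689 stayed within the technical SD or within 1.5 times the count and 142 moved further. The cause of these changes was not tested, except that a stricter filter or threshold leaves fewer genes and a looser one more. Low signal limits the dim members: at intensities under 25 the technical SD of a difference was 0.61, so small differences in *Mmp10*, *Mmp12* and *Mmp1a* could not be detected. Leaving out a replicate and fitting the slide were not possible with 1 array per genotype. No paired analysis was possible because each genotype had 1 array.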
